A study of Mus musculus with 2 samples.

Results

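The cells described here are thymocytes that carried transcripts of the T cell receptor (TCR) complex and of Ccr9, Lef1 and Satb1, genes of single-positive (SP) thymocytes, but no transcript of Ikzf2, which encodes Helios, a factor known to mark cells that received a strong TCR signal during selection. They were found among cells stained as CD1d tetramer+ invariant natural killer T (iNKT) cells, and are referred to as Helios-negative SP-type cells. The name stands for the rule below, since Ccr9, Lef1 and Satb1 were also detected in the cells that members were compared with. A member cell had at least 1000 detected genes and at most 5% mitochondrial counts, had at least 80% of at least 10 hashtag UMIs on hashtag row 11, 13, 15 or 17, had no Ikzf2 UMI, at least 1 UMI of Cd3d, Cd3e or Cd3g, at least 3 UMIs summed over Ccr9, Lef1 and Satb1, and no UMI of Rag1, Dntt, Arpp21, Cd79a or Lyz2. Members were thus chosen by measured UMI counts of these genes, and those values are given below as a description only. A UMI (unique molecular identifier) stands for 1 captured transcript. By this rule 211 cells were members, out of 16179 barcodes, 12147 barcodes that passed the filters on genes and mitochondrial counts, and 4249 passing cells of the 4 hashtag rows. They were 1.74% of the passing cells and 4.97% of the cells of the 4 rows.

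The study sorted stage 0 iNKT cells (TCRβ+, CD1d tetramer+, CD24+, NK1.1-) and stage 3 iNKT cells (TCRβ+, CD1d tetramer+, CD24-, CD44+, NK1.1+) from Ctrl mice and from T-KO mice, in which floxed Kidins220 alleles were recombined by a Cre under the proximal Lck promoter, all on a C57BL/6 background. Kidins220 is a membrane scaffold that binds the TCR. For each genotype the cells of 4 thymi were pooled and sorted, which was done 2 times in parallel, and the 8 sorted populations were marked with hashtag antibodies and loaded together in 1 droplet library. No source used here pairs hashtag rows 11 to 18 of the count table with these populations, so each row is reported under its number, rows are not replicates of a known group, no comparison of Ctrl with T-KO was made, and no test between groups or classes was run. The methods give an age range for the mice of the study as a whole and no age for this experiment, and the values below compare classes of cells within the same rows.

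In the thymus, double-positive (DP) cells carry both coreceptors, CD4 and CD8, and test newly rearranged TCRα chains on self peptides. Cells that receive a suitable signal are positively selected, induce CD69, CD5 and Egr1, stop recombining, and become CD4 or CD8 SP cells, which later gain CCR7, IL-7 receptor and S1P receptor before they leave. Cells that receive stronger signals can instead be deleted or enter agonist-selected lineages, among them iNKT cells, whose TCRα chain uses the Trav11 segment and binds CD1d.

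The rows did not hold the members evenly. Row 11 had 114 members, row 13 had 46, row 15 had 29 and row 17 had 22. Of the cells that passed the CD3 and exclusion criteria, members made up 37.1% in row 11 (95% Clopper-Pearson interval 31.7 to 42.8), 11.2% in row 13 (8.29 to 14.6), 12.7% in row 15 (8.65 to 17.7) and 10.5% in row 17 (6.72 to 15.5). Row 11 therefore stood apart, and it supplied more than the other 3 rows together. It stood apart in another cell class as well, since the median UMI count of its DP-gate cells (the same criteria, but with a Rag1, Dntt or Arpp21 UMI) was 2842, against 11546, 11678 and 10822 in rows 13, 15 and 17. Values are therefore given by row wherever a gene is described in depth. All intervals in the text are 95% intervals, exact Poisson for levels and Clopper-Pearson for shares, and cover counting error only.

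Members were shallower than the cells they were compared with. Their median was 2680 UMIs and 1498 genes per cell, with 660203 UMIs in all, while 702 Helios-positive cells of the same rows (at least 2 Ikzf2 UMIs, same CD3 and exclusion criteria) had a median of 4716 UMIs and 2220 genes, with 4275885 UMIs in all. By row, the member medians were 2535, 2862, 2963 and 3123 UMIs. Mitochondrial counts had a median share of 1.52% in members and 1.88% in Helios-positive cells, and ribosomal protein genes 14.9% and 19.2%. Depth bears on the rule itself, because a shallow Helios-positive cell can show no Ikzf2 UMI. When 672 Helios-positive cells were thinned to 2000 UMIs each, 58 of them (8.63%, interval 6.62 to 11.01) had no Ikzf2 UMI left, and 15 of those (2.23% of the 672) still had 3 UMIs of Ccr9, Lef1 and Satb1. Levels are given as CPM, the counts per 1000000 UMIs, taken over the summed cells of a class, which removes total depth.

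Satb1, a chromatin organizer of developing T cells, was the most often detected of the 3 gate genes, in 96.2% of members. Lef1, a high-mobility-group factor of SP thymocytes, was found in 84.8% and Ccr9, the receptor for the thymic and gut chemokine CCL25, in 75.8%. Detection of these genes was not particular to members. Satb1, Lef1 and Ccr9 were found in 54.1%, 78.2% and 6.1% of the deeper Helios-positive cells. In DP-gate cells, also deeper, the shares were 96.9%, 83.7% and 39.5%. Of the 702 Helios-positive cells, 424 also had a sum of at least 3. In CPM each gene was higher in members than in both classes. In members the median sum over the 3 genes was 13 UMIs and the highest 49, so most members were far from the threshold of 3. At the threshold itself stood 9 members with a sum of 3, whose Itm2a level was 50.1 CPM, and 20 cells were left out at a sum of 2, whose Itm2a level was 41.1 CPM. Members with a sum of 10 or more, 146 cells, had Itm2a at 2845 CPM. Of the Helios-zero cells with a sum of 0, 78 of 83 had at least 20 UMIs of Cst3, Cd74, H2-Aa, H2-Ab1 and H2-Eb1, which are genes of antigen-presenting cells, whereas only 5 of the 211 members did. A further 103 cells with exactly 1 Ikzf2 UMI belonged to neither class.

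The label of post-selection cells was set beside the 392 DP-gate cells as a description, since the gates themselves divide the classes by Rag1, Dntt and Arpp21. Itm2a and Cd4 are also markers by which these cells were proposed. That class is named by its gate, since 58.7% of its cells had Cd8 UMIs alone and 16.1% had both coreceptors, with Cd4 at 30.7 CPM, and it held cycling cells, with Mki67 at 544 CPM, and Trdc at 197 CPM. Itm2a, a membrane protein gene induced in selected thymocytes, had levels of 2340, 1501, 2527 and 1921 CPM in the members of rows 11, 13, 15 and 17 and of 353.6, 79.1, 179.8 and 173.1 CPM in the DP-gate cells. The ranges did not overlap. Cd69, the early activation antigen of selection, had 226 CPM in members (interval 191 to 265) and 27.8 CPM in DP-gate cells, Cd5, a surface protein set by TCR signal strength, 599.8 against 73.3 CPM, and Egr1, an immediate early gene of TCR signaling, 388 against 39.1 CPM. Each of these was higher in the members of all 4 rows. Other genes of the DP list went both ways. Cd4 was higher in members (245 against 30.7 CPM, in all 4 rows), while Cd8b1 was at 210.5 against 375 CPM. Cd8a was at 177 against 154 CPM in the pooled cells, but only row 15 had more in members (295 and 90.3 CPM). In row 11 it had 215 and 311 CPM, in row 13 97.1 and 177 CPM and in row 17 58.2 and 58.3 CPM. Lower in members were Aqp11, at 28.8 CPM against 213 CPM in DP-gate cells, and Ptcra, the pre-TCRα chain, at 6.06 and 127 CPM. Rag2, a recombinase subunit left out of the rule, had 0 UMIs in members, which allows up to 4.54 CPM (3 counts), and 35.6 CPM in DP-gate cells.

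The TCRα transcripts of members were diverse, and the iNKT segment was nearly absent from them. Of 537 UMIs of TRAV segments in members, 3 came from Trav11 and its copies (0.559%, interval 0.115 to 1.62). They were 2 UMIs in row 11, 1 in row 13 and 0 in rows 15 and 17, where the intervals reached up to 5.28% and 10%. The share was 0.160% of 3121 TRAV UMIs in Helios-positive cells and 0.715% of 699 in DP-gate cells, so the intervals of the 3 classes overlapped. In the CD3+ cells of rows 12, 14, 16 and 18 the same segments held 1267 of 4362 TRAV UMIs (29.0%, interval 27.7 to 30.4). The segment sequences below, from the GRCm38 reference on the plus strand of chromosome 14, show why the copies were summed and how the segments used by members differ from them. Each line gives 30 bases near the 3′ end of the coding V exon, aligned on the codon for the conserved cysteine, which is in capitals and opens the CDR3 loop.
Trav11 (chr14:53519829-53519858): gacactgccacctacatcTGTgtggtgggc
Trav11d (chr14:52824883-52824912): gacactgccacctacatcTGTgtggtgggc
Trav3-3 (chr14:53666476-53666505): gactcagccgcgtacttcTGCgcagtcagt
Trav14d-3-dv8 (chr14:53079015-53079044): gactcagccacctacttcTGTgcagcaagt
The exons of Trav11 and Trav11d were identical over the 290 bases compared, so that a read lying within these bases cannot be assigned to either copy. Trav3-3 differed from them at 11 of the 30 bases shown and Trav14d-3-dv8 at 9 of the 30.

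Trav3-3 and Trav14d-3-dv8 are shown because they had the most TRAV UMIs in members, 41 UMIs in 20 cells (7.64%, interval 5.53 to 10.2) and 34 UMIs in 18 cells (6.33%, interval 4.42 to 8.74). Trav3-3 had a like share in Helios-positive cells, 8.52%, while Trav14d-3-dv8 had 2.98% there and was higher in the members of all 4 rows. Both were chosen by their UMIs in members, which favors a higher share there. Of the 10 TRAV segments with the most UMIs in members, Trav14d-3-dv8 was the only segment higher in all 4 rows. Its share in the members of row 15, 4.41%, is what 3 UMIs give. Several TRAV segments have near-identical copies, between which reads may be divided. In all, 154 members had a TRAV UMI, over 71 segments, and no segment held more than 7.64% of the UMIs. TRBV segments had 2169 UMIs over 22 segments in 200 members, led by Trbv13-2 with 11.3% in 61 cells and Trbv13-1 with 9.77% in 25 cells. TRAV transcripts of any segment summed to 813 CPM in members, 729.9 CPM in Helios-positive cells and 172 CPM in DP-gate cells, and Trac, the TCRα constant gene, had 156, 163 and 36.1 CPM. Segment position was examined because the first Vα to Jα joins are known to use segments near the constant gene. Of the pairs of a cell and a segment, 46.3% in members lay in the third of segments nearest to Trac (interval 40.2 to 52.4), 53.0% in Helios-positive cells (49.9 to 56.1) and 60.9% in DP-gate cells (55.4 to 66.2). In the pooled cells the interval of members overlapped that of Helios-positive cells and lay below that of DP-gate cells. Within each row the intervals of members and DP-gate cells overlapped. The shares were 48.5% and 52.6% in row 11, 46.4% and 66.9% in row 13, 40.5% and 56.8% in row 15, and 43.5% and 71.05% in row 17.

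To find what else separated members from Helios-positive cells, 7437 genes with at least 20 CPM in either class were compared. A gene was called when its pooled levels, each with 10 CPM added, differed at least 2-fold and it lay on the same side in all 4 rows. By this rule 216 genes were higher in members, 2.9 percent of those compared, and 232 genes were lower, 3.12 percent. The median log2 ratio over all compared genes was 0.011. Of the 7437 genes, 1071 were higher in members in all 4 rows at any fold, so this pattern alone does not mark a gene out. The like number for the lower side was not counted. A called gene is on the same side in all 4 rows by the rule. How many of all compared genes had row ranges without overlap was not counted. The 12 genes of the gates were left out, and since Helios and the gate genes chose the classes, the calls describe these cells and were given no p-value. Without row 11, 263 genes were higher and 307 lower, among them 196 and 190 of the original calls. Without the cells with antigen-presenting transcripts in both classes, 225 were higher and 272 lower, sharing 195 and 215.

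**Figure D1:**
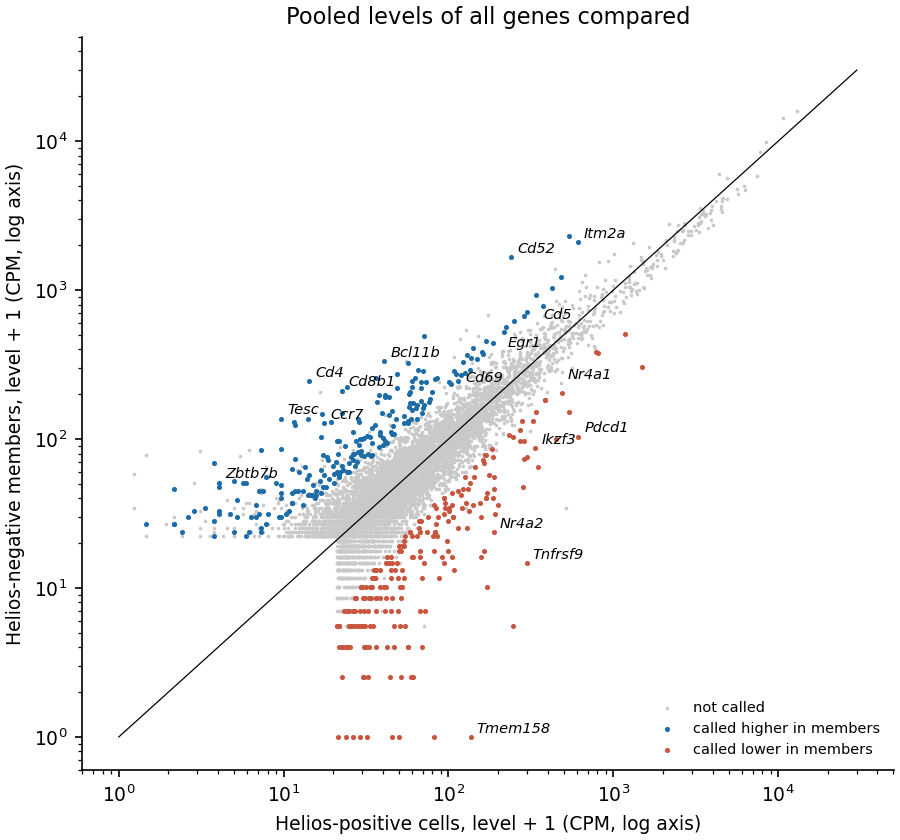
Pooled level of each of 7437 genes in Helios-positive cells (horizontal axis) and Helios-negative members (vertical axis), as CPM plus 1 on log axes, with the 216 genes called higher in members in blue, the 232 called lower in red and the line of equality in black. Cd4, Cd8b1, Bcl11b, Cd52 and Itm2a lie above the line, and Pdcd1, Tnfrsf9, Nr4a2 and Tmem158, with 0 UMIs in members, lie below it.

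The coreceptor genes were called higher. Cd4, the coreceptor of class II restricted cells, had 262.6, 175, 354 and 198 CPM in the members of rows 11, 13, 15 and 17 and 23.5, 15.6, 7.30 and 8.62 CPM in Helios-positive cells. Every member value was above every Helios-positive value, and the pooled levels, 245 CPM (interval 209 to 286) and 13.3 CPM (10.1 to 17.3), gave a log2 ratio of 3.45, the highest of the 15 leading genes described here. Since Cd4 is a marker by which these cells were proposed, its values here and below are a description only. Cd8b1, the CD8β chain, had 286, 188, 129.9 and 34.9 CPM in members and 43.7, 20.1, 11.5 and 21.5 CPM in Helios-positive cells. Its pooled log2 ratio was 2.80, but the member value of row 17 lay within the Helios-positive range, and the level of members without row 11 was 132 CPM in place of 210.5 CPM. Cd8a was likewise called higher, at 177 CPM against 36.0 CPM, with overlapping ranges. The coreceptor genes were also the 3 calls among 4 compared genes of the DP list, while the fourth, Aqp11, which marks the DP stage, was not called.

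Genes of the CD4 lineage program were higher along with Cd4. Of the 6 genes in that list, which includes Cd4 itself, 5 were called higher and 0 lower, with a median log2 ratio of 1.69. Zbtb7b, which encodes the CD4 lineage factor ThPOK, had 44.8, 38.8, 82.7 and 58.2 CPM in members and 1.68, 5.02, 3.13 and 0 CPM in Helios-positive cells, with no overlap and a pooled log2 ratio of 2.20. Gata3, a factor that acts upstream of ThPOK, had 136 and 58.0 CPM, Cd40lg, the CD40 ligand of helper cells, 95.4 and 20.1 CPM, and Izumo1r, the folate receptor 4 gene, 219.6 and 67.1 CPM. Tox, a factor needed for CD4 SP development, had 565 and 429.6 CPM and was not called. Among 4 compared genes of the CD8 list the 2 chains of CD8 were called higher, while Runx3, the CD8 lineage factor, had 49.98 CPM in members (interval 34.4 to 70.2) and 32.5 CPM in Helios-positive cells and was not called, nor was Nkg7, a cytotoxic granule gene, with 96.9 and 166 CPM.

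**Figure D2:**
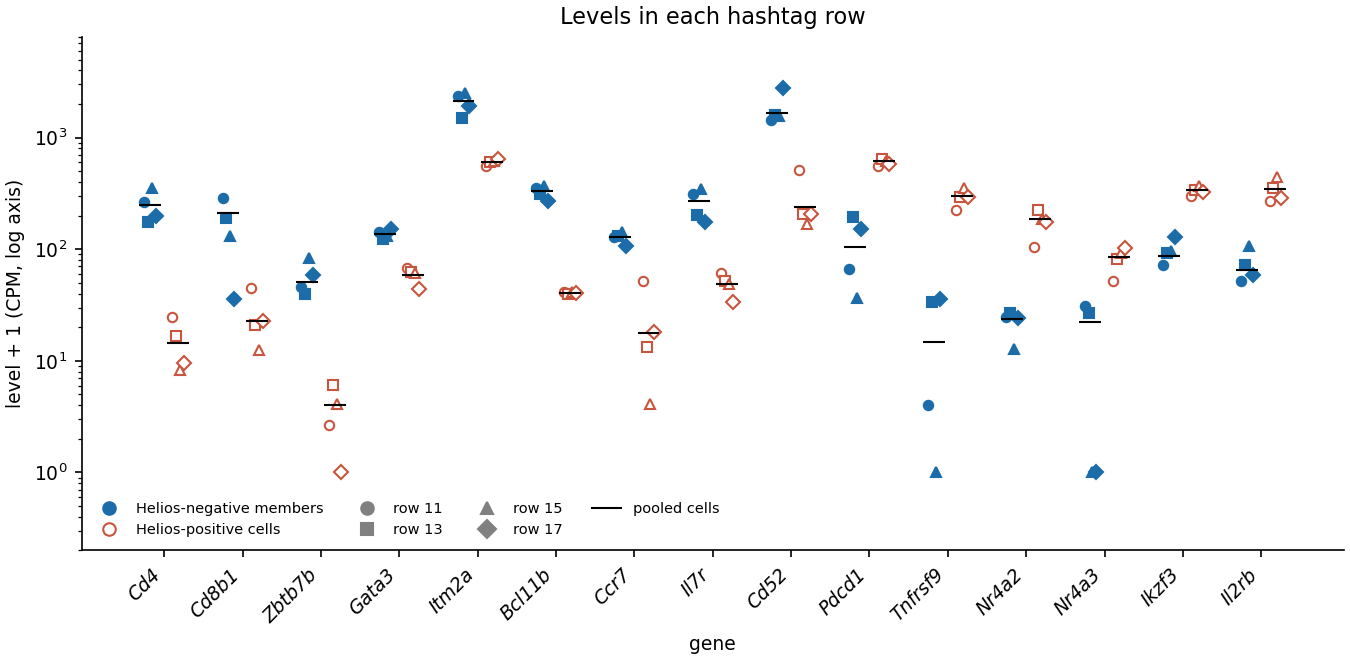
Level of 15 genes in each hashtag row, as CPM plus 1 on a log axis, in Helios-negative members (filled blue) and Helios-positive cells (open red); the marker shape gives the row and black bars the pooled cells. Cd4 in members sits between 175 and 354 CPM, above the Helios-positive rows, which reach 23.5 CPM, and Pdcd1 in members sits between 35.4 and 194 CPM, below the Helios-positive rows, which start at 551 CPM.

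Cell by cell, members divided into coreceptor classes. Of the 211, 80 had Cd4 and no Cd8 UMI (37.9%, interval 31.3 to 44.8), 45 had Cd8 and no Cd4 UMI (21.3%, interval 16 to 27.5), 22 had both (10.4%) and 64 had neither (30.3%). By row, the share with Cd4 alone was 36.0%, 34.8%, 51.7% and 36.4%. Of the 702 Helios-positive cells, which were deeper, 33 had Cd4 alone (4.70%), 104 Cd8 alone (14.8%), 11 both and 554 neither (78.9%). B-gate cells (at least 2 Cd79a UMIs and no CD3 UMI, median 6187 UMIs), which should lack both coreceptors, had Cd4 alone in 0.229% and Cd8 alone in 5.72%, so Cd4 in members was far above this background and Cd8 alone was above it too. With each cell thinned to 2000 UMIs, leaving out 47 shallower members and 30 shallower Helios-positive cells, Cd4 alone stood at 36.0% of members and 2.83% of Helios-positive cells, Cd8 alone at 18.9% and 9.38%, and neither at 39.0% and 87.4%. A cell with neither cannot be told apart from a cell whose coreceptor transcripts were not captured.

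**Figure D3:**
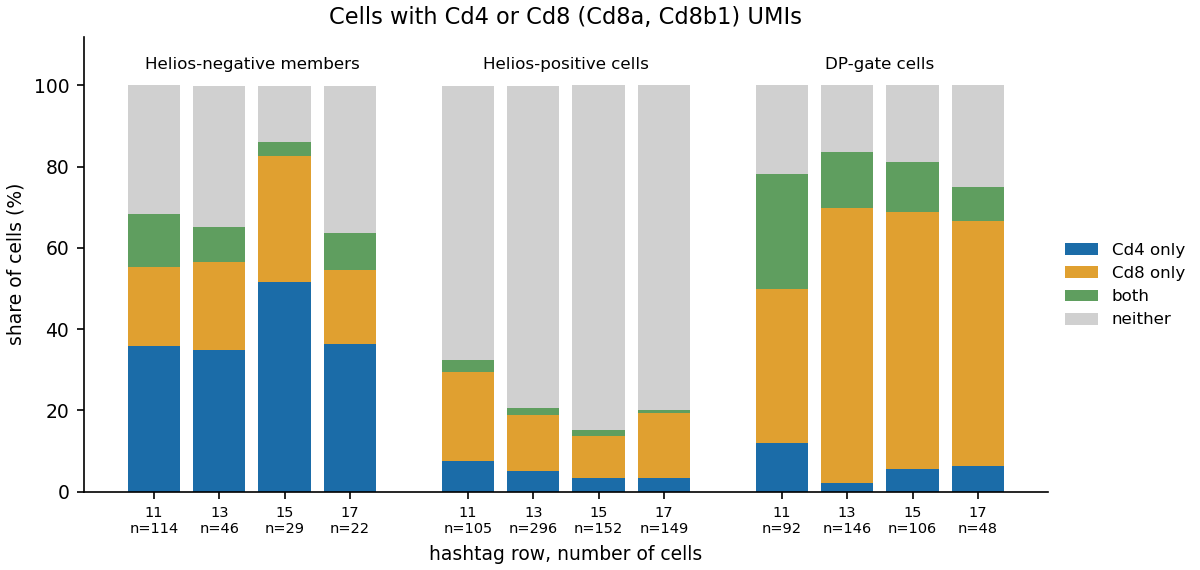
Share of cells (percent) with UMIs of Cd4 alone, of Cd8a or Cd8b1 alone, of both or of neither, in each hashtag row, for Helios-negative members, Helios-positive cells and DP-gate cells, with the number of cells under each bar. Members with Cd4 alone make up 34.8% to 51.7% of each row, while cells with neither make up most Helios-positive cells of every row.

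The members with Cd4 alone and those with Cd8 alone differed in some of the lineage genes. Zbtb7b had 19 UMIs (81.3 CPM) in the former and 2 UMIs (15.1 CPM) in the latter, a ratio of 5.38 with a counting interval of 1.30 to 47.7, and Cd40lg had 167 and 37.8 CPM, a ratio of 4.42 (interval 1.74 to 14.4). Both were higher with Cd4 alone in all 4 rows, as were Izumo1r (282.5 and 83.1 CPM) and Itm2a (3116 and 831 CPM). Thy1, a pan T cell surface protein gene, went the other way, with 317 CPM in cells with Cd4 alone and 899 CPM in cells with Cd8 alone, and was lower with Cd4 alone in all 4 rows. The row counts of Zbtb7b were small, with 8, 6, 4 and 1 UMIs with Cd4 alone and 1, 0, 1 and 0 with Cd8 alone. Members with neither coreceptor UMI had 12 Zbtb7b UMIs (51.2 CPM), 4 of them in row 17. The intervals of 2 lineage factors included equal levels, with Gata3 at 128 and 106 CPM (ratio interval 0.624 to 2.48, higher in 2 of 4 rows) and Runx3 at 51.4 and 37.8 CPM (0.446 to 4.93). S1pr1, the receptor that guides thymic exit, had 11 UMIs (47.1 CPM) in cells with Cd4 alone and 0 in cells with Cd8 alone. Each class rests on 80 and 45 cells, so these ratios have wide counting intervals, and the depth of the classes was similar, with medians of 2864 and 2361 UMIs.

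Genes of mature SP cells were higher in members in part. Of 9 genes in the mature SP list, 6 were called higher and 0 lower, with a median log2 ratio of 1.94. Ccr7, the chemokine receptor that draws SP cells into the medulla, had 128, 129, 142 and 105 CPM in members of rows 11, 13, 15 and 17 and 50.4, 12.3, 3.13 and 17.2 CPM in Helios-positive cells, without overlap. Il7r, the IL-7 receptor chain, had 271 CPM in members (interval 233 to 314) against 47.7 CPM, and Cd52, a small surface glycoprotein gene, 1669 against 238 CPM. The schlafen genes Slfn1 and Slfn2 were called higher as well. In contrast Klf2, the factor that drives S1pr1, was lower in the members of all 4 rows, at 89.4 against 179 CPM, though short of the 2-fold limit. S1pr1 itself had 19.7 CPM in members (interval 10.5 to 33.7) and 21.5 CPM in Helios-positive cells, and Itgb7 had 66.7 and 64.1 CPM.

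Of 6 compared genes of the immature SP list, 2 were called higher, Ccr4 and Itm2a, and 0 lower, with a median log2 ratio of 0.65. Ccr4, a chemokine receptor of recently selected CD4 cells, was called higher with 135 against 13.1 CPM, and Cd69 had 226 against 115 CPM, higher in all 4 rows but not called. Cd24a, the gene of the antigen used in the stage 0 sort, had 203 CPM in members and 296 CPM in Helios-positive cells, and Sox4, a factor of early thymocytes, 418 and 760.3 CPM, and both were lower in all 4 rows and not called. At the level of cells, 52 members had a Ccr7 UMI (24.6%), 69 had a Cd69 UMI (32.7%) and 13 had both (6.16%), against 4.13%, 38.5% and 2.28% of Helios-positive cells. After thinning to 2000 UMIs, Ccr7 was detected in 16.5% of members, 2.38% of Helios-positive cells and 3.67% of DP-gate cells, and Cd69 in 26.2%, 19.2% and 7.06%. Without thinning, the share of cells with Cd69 thus had the opposite order to its CPM, and no order is read from it.

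Receptors for chemokines and cytokines differed in both directions. Of 4 compared chemokine and egress receptor genes, 3 were called higher, Ccr7, Ccr4 and Ccr8. Ccr8, the receptor for CCL1 and CCL8, was called higher with 43.9 against 6.08 CPM, and its members ranged from 14.9 CPM in row 11 to 163 CPM in row 17. Without row 11 its level in members was 73.8 CPM. Of 7 cytokine receptor genes, Il7r, Il4ra (68.2 and 24.1 CPM) and Il6ra (28.8 and 1.64 CPM) were called higher, and Il2rb and Il6st were called lower. Il2rb, the β chain shared by the IL-2 and IL-15 receptors, had 50.7, 71.2, 106 and 58.2 CPM in members and 269, 351, 447 and 288 CPM in Helios-positive cells, without overlap. Il6st, the common chain of the IL-6 family, had 77.2 and 166 CPM. Il6st was no longer called without row 11 (log2 ratio -0.96) or without the antigen-presenting cells (-0.91).

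Genes induced by TCR signals did not move as 1 group. Of 10 compared genes in the TCR-induced list, 1 was called higher and 2 lower, and the median log2 ratio of -0.0003 lay close to that of all genes. Nr4a2, an orphan nuclear receptor gene induced by the TCR, had 23.9, 25.9, 11.8 and 23.3 CPM in members and 104, 222, 186 and 173 CPM in Helios-positive cells, and Nr4a3 had 29.8, 25.9, 0 and 0 CPM against 50.4, 81.4, 90.8 and 102 CPM. Neither gene overlapped between the classes. The pooled member level of Nr4a3, 21.2 CPM, was 12.3 CPM without row 11 and 9.92 CPM without the antigen-presenting cells, with log2 ratios of -2.15 and -2.24 in place of -1.59. Nr4a1, which encodes Nur77, was also lower in members of all 4 rows, with 236 and 481 CPM, and its log2 ratio of -0.996 was just short of the call, while without the antigen-presenting cells it was -1.08 and called. Junb, by contrast, was called higher with 668 against 287 CPM, and Egr1 (388 and 209.5 CPM) and Cd5 (599.8 and 346 CPM) were higher in all 4 rows without reaching 2-fold. Egr2, the early growth response gene tied to strong signals, had 95.5 CPM in row 11 and 19.4, 11.8 and 34.9 CPM in the other rows, against 53.9 to 63.6 CPM in Helios-positive cells. Leaving out row 11, its log2 ratio was -1.15 and it was called lower.

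Set against the pooled DP-gate cells, these genes were higher in members. Nr4a1 had 236 CPM in members and 16.2 CPM in DP-gate cells, and Nr4a2 22.7 and 10.6 CPM, although in row 15 Nr4a2 had 11.8 CPM in members and 13.6 CPM in DP-gate cells. Nr4a3 had 21.2 and 3.20 CPM, but in rows 15 and 17 it had 0 CPM in members and 2.40 and 5.47 CPM in DP-gate cells. The pooled level of members thus lay between DP-gate and Helios-positive cells in Nr4a1, Nr4a2 and Nr4a3, and above both in Egr1, Cd5 and Cd69.

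Genes linked to strong agonist signals were led by a pair of receptors that were much lower in members. Pdcd1, which encodes the inhibitory receptor PD-1, had 65.7, 194, 35.4 and 151 CPM in members and 551, 647, 617 and 579.5 CPM in Helios-positive cells. The ranges were far apart, and the pooled log2 ratio was -2.46. Tnfrsf9, the costimulatory receptor 4-1BB, had 2.98, 32.4, 0 and 34.9 CPM against 225, 293, 354 and 291 CPM, a log2 ratio of -3.70. Of the 10 genes in this list, these were the 2 called lower and 0 were called higher, and the median log2 ratio was 0.02, but without the antigen-presenting cells it was -0.45 over 8 compared genes. Bcl2l11, the gene of the death mediator Bim, had 45.4 and 94.5 CPM and was lower in members of all 4 rows, without a call. The NF-κB genes Nfkb2 (56.0 and 53.3 CPM) and Relb (66.7 and 62.0 CPM) were close in both classes. Tnfrsf4, which encodes OX40, had 21.2 and 12.6 CPM and Tnfrsf18, which encodes GITR, 65.1 and 88.4 CPM, and their rows overlapped. Of the 14 Tnfrsf4 UMIs in members, 9 came from row 13, and the level without row 11 was 33.8 CPM, again without a call.

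Survival genes gave few calls. Of 9 genes of the Bcl2 family, Bcl2 was called higher with 344 CPM in members against 147 CPM and Bcl2a1b with 78.8 against 31.6 CPM, and 0 were called lower. Both calls depended on the cells of row 11: without it the log2 ratio was 0.88 for Bcl2 and 0.77 for Bcl2a1b. Bcl2a1b also lost its call without the antigen-presenting cells. Bid, a BH3-only death gene, had 23.9, 6.47, 0 and 0 CPM in members and 25.2, 32.3, 34.4 and 37.7 CPM in Helios-positive cells. It was lower in all 4 rows and not called, but without row 11 its log2 ratio was -1.76 and it was called lower. Bcl2a1d had 53.0 and 22.4 CPM without a call, and Mcl1, Bax and Bbc3 were not called either.

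Among the other transcription factors, Bcl11b and Id2 were called higher and Ikzf3 and Id3 lower. Bcl11b, which fixes T cell identity, had 349, 311, 366 and 268 CPM in members and between 39.0 and 40.7 CPM in the Helios-positive cells of every row. Its pooled log2 ratio was 2.78, DP-gate cells had 231 CPM, and it was the 1 call among 5 compared genes of the list of thymocyte chromatin factors. Id2, an inhibitor of E proteins, was 298, 123, 248 and 582 CPM in members against 99.1, 51.3, 67.8 and 62.5 CPM. Of its 50 UMIs in the members of row 17, 36 came from the 8 cells with neither coreceptor UMI. Id3, the related inhibitor induced by TCR signals, was lower, at 436, 408, 248 and 233 CPM against 884, 858, 844 and 614 CPM. Neither Id gene overlapped between the classes. The log2 ratio of Id3 was -1.07, and -0.98 without the antigen-presenting cells, where it was no longer called. Of 5 compared E and Id protein genes these were the 2 calls. The E protein genes Tcf3 and Tcf12, with 154 and 81.8 CPM in members, were not called. Of the Ikaros family besides Helios, Ikzf3, the gene of Aiolos, had 71.6, 90.6, 94.5 and 128 CPM in members and 296, 340.1, 365 and 323 CPM in Helios-positive cells, a log2 ratio of -1.84, while Ikzf1, the gene of Ikaros, had 286 and 250 CPM. Tcf7, the gene of TCF-1, was higher in all 4 rows (1131 and 641 CPM) and not called.

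Components of TCR signaling were higher in part. Of 11 compared genes of the TCR complex and its proximal enzymes, 3 were called higher and 0 lower, with a median log2 ratio of 0.75. The 3 were Cd247, which encodes the ζ chain (456 and 167 CPM), Lat, the adaptor phosphorylated by ZAP-70 (931.5 and 339 CPM), and Themis, an adaptor needed for positive selection (199.9 and 56.8 CPM). Lck had 849.7 against 446 CPM and was not called, but it was called without the antigen-presenting cells, with a log2 ratio of 1.01. Zap70 had 236 and 272.5 CPM and Cd28 399.9 and 327 CPM. Kidins220, the gene deleted in T-KO mice, had 15 UMIs in members, 22.7 CPM (interval 12.7 to 37.5), and 22.4 CPM in Helios-positive cells. By row the members had 23.9, 25.9, 23.6 and 11.6 CPM. These UMIs do not check any genotype, since the part of the gene they come from is not known and no row was assigned to a genotype.

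Further genes among the 15 with the highest ratios were Tesc, a calcium-binding protein gene (136 and 8.65 CPM), Inpp4b, a phosphoinositide phosphatase gene (221 and 23.4 CPM), Sit1, an adaptor that tunes TCR signals (123 and 10.8 CPM), Thy1 (492 and 70.4 CPM), Abi3 (145 and 16.1 CPM), Ckb, the brain-type creatine kinase (254 and 35.3 CPM), and Cd226, which encodes the costimulatory receptor DNAM-1 (83.3 and 6.31 CPM). As called genes, all of these lay above Helios-positive cells in every row by the rule, and their ranges did not overlap. Chl1, an adhesion molecule gene (68.2 and 2.81 CPM), was also separate in every row, but 33 of its 45 UMIs in members came from row 11 and its level without that row was 36.9 CPM, a log2 ratio of 1.88 in place of 2.61. Igfbp4, which encodes an insulin-like growth factor binding protein, was uneven, with 50.7, 298, 11.8 and 244 CPM in rows 11, 13, 15 and 17. Its ranges overlapped, its pooled level moved from 129 to 209 CPM without row 11, and it kept its call in fewer of the alternative settings than any other of the 15.

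At the other end, Tmem158, Itgb8, Arhgap20 and Slc9b2 had 0 UMIs in members. With 3 counts over the members as the limit, Tmem158, a membrane protein gene, was at least 29.8-fold lower than the 135 CPM of Helios-positive cells, Itgb8, an integrin chain that activates TGF-β, at least 17.9-fold lower, Arhgap20 at least 10.9-fold lower and Slc9b2, a sodium/proton exchanger gene, at least 9.83-fold lower. Eno3, the muscle-type enolase, had 3 UMIs in members (4.54 CPM) and 245 CPM in Helios-positive cells. Trpm1, a cation channel gene (9.09 and 169.6 CPM), Cldn10, a claudin gene (15.2 and 156 CPM), Mmd (16.7 and 163 CPM), Tmod1, an actin capping protein gene (1.51 and 59.6 CPM), Prr5l (3.03 and 67.8 CPM), Tnni1, a troponin gene (1.51 and 58.0 CPM), and Myo1e, a myosin gene (12.1 and 107 CPM), completed the lower group. In each of these genes the highest row of the members was below the lowest row of the Helios-positive cells. DP-gate cells were low in these genes as well, from 0.246 CPM for Arhgap20 and Slc9b2 to 18.9 CPM for Mmd. Several of the member levels rest on few UMIs. Without row 11 the level was lower for Myo1e (6.15 CPM) and Cldn10 (9.23 CPM). It was higher for Trpm1 (15.4 CPM), Tmod1 (3.08 CPM) and Tnni1 (3.08 CPM), and all of these genes were still called lower.

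Surface maturation genes were higher in part. Of 6, Cd52, Ly6a (Sca-1, 89.4 and 22.7 CPM) and Ly6d (98.5 and 28.1 CPM) were called. Ly6d had 844 CPM in DP-gate cells, its members were highest in row 11 with 140 CPM, and without that row its log2 ratio was 0.88 and no longer called. Ly6e, which had 1048 CPM in members and 678.5 CPM in Helios-positive cells, was not called. Of 5 regulators of RNA decay and quiescence (Btg1, Btg2, Zfp36, Zfp36l1 and Zfp36l2), 0 were called, and Zfp36l1 was lower in all 4 rows with 406 and 775 CPM. Without row 11 its log2 ratio was -1.09 and it was called.

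**Figure D4:**
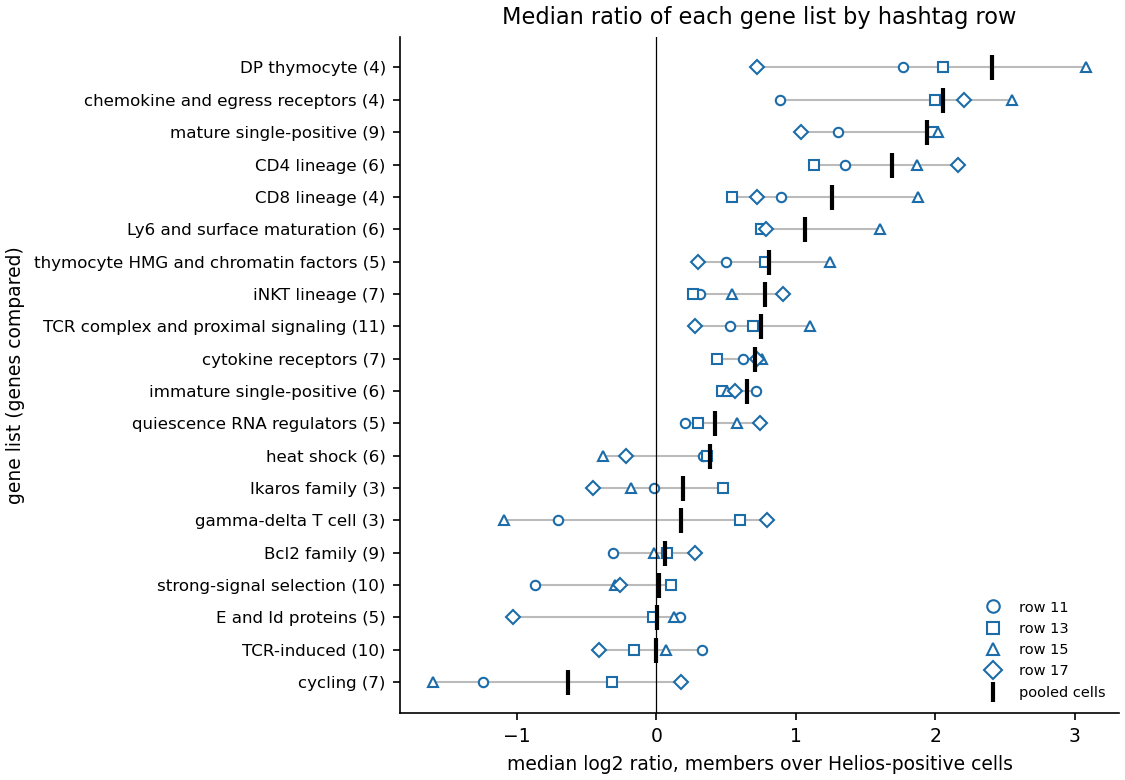
Median log2 ratio of members over Helios-positive cells for each gene list with at least 3 compared genes, in each hashtag row (open markers) and in the pooled cells (black bar), with gray lines over the range of the rows and the number of compared genes in brackets. The mature single-positive list has a pooled median of 1.94 and lies above 0 in every row, the TCR-induced list lies on both sides of 0, and the cycling list runs from -1.60 in row 15 to 0.18 in row 17.

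Transcripts of other cell types were examined in the members, and their part in the results above was not tested unless a value is given. Of the antigen-presenting genes, Cd74 had 4118 CPM in row 11 and 531, 307 and 303 CPM in the other rows, and Cst3 2444 CPM in row 11 and 401, 213 and 186 CPM. Most of these UMIs came from 5 cells, 4 in row 11 and 1 in row 13, with at least 50 such UMIs each, while the other 206 members had at most 8. Leaving these cells out lowered the summed level of the 5 genes from 5367 to 894.7 CPM, and in Helios-positive cells, where 6 cells were left out, from 1396 to 492 CPM. Cd74 was then at 365.5 and 162 CPM, still called higher, and H2-Ab1 was called higher at 91.0 and 34.5 CPM. Without row 11, however, neither gene was called. Cd74 then had 412 and 259.5 CPM (log2 ratio 0.65) and H2-Ab1 98.4 and 64.7 CPM (0.54). Of the 7 genes in the myeloid list the most abundant in members was Cst3, Fcer1g had 58 UMIs (87.8 and 69.0 CPM, and 14.9 and 66.2 CPM without these cells, where it was called lower), Lyz2 was at 0 by the rule, and Itgax, Csf1r, Xcr1 and Siglech had between 6 and 12 UMIs. Of the 6 B cell genes, Cd79a (by the rule), Ebf1 and Pax5 were at 0, and the list summed to 14.9, 25.9, 11.8 and 23.3 CPM in rows 11, 13, 15 and 17.

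Transcripts of lineages near to conventional T cells were also counted. Foxp3, which defines regulatory T cells, and Ikzf4 had 0 UMIs in members. For Foxp3 this is 0 of 211 members, with an interval of 0 to 1.73% for the share of cells with a UMI. A Foxp3 UMI was found in 12 of 702 Helios-positive cells (1.71%), a share within that interval. Of these 12 cells, 9 were in row 15. In row 11, which held most members, 0 of 105 Helios-positive cells had one. Trdc, the TCRδ constant gene, was found in 14 members (6.64%) and 74 Helios-positive cells (10.5%), at 24.2 and 45.4 CPM, and 0 of 3 compared genes of the gamma-delta list were called. In the pooled cells other genes of that list went the other way in part, with Tcrg-C4 at 36.4 and 26.0 CPM, Tcrg-C2 at 33.3 and 28.3 CPM and Sox13 at 13.6 and 0.468 CPM. Of the 24 Tcrg-C4 UMIs in members, 16 came from row 17, and the level without row 11 was 70.75 CPM. In rows 11 and 15 Tcrg-C4 was lower in members (2.98 and 11.8 CPM, and 11.8 and 36.5 CPM). Sox13 had 6 of its 9 UMIs in row 13 and 0 in rows 15 and 17. The list summed to 113.6 CPM in members and 113.9 CPM in Helios-positive cells, and to 279 and 102 CPM in row 17. Zbtb16, which encodes the iNKT factor PLZF, was found in 7 members (3.32%) and 34 Helios-positive cells (4.84%), at 21.2 and 13.6 CPM. Its level of 81.5 CPM in the members of row 17 rests on 7 UMIs in 2 cells. Klrb1c, the NK1.1 gene, had 21.2 CPM in members and 6.08 CPM in Helios-positive cells, was found in 5.21% and 3.42% of the cells, and reached 70.9 CPM in the members of row 15 against 0 in those of row 17. Among 7 compared genes of the iNKT list 1 was called higher, Icos, a costimulatory receptor gene (95.4 and 20.6 CPM), and 2 lower, Il2rb and Slamf6 (45.4 and 187 CPM), the latter coding for a receptor used in iNKT selection.

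The cell cycle gene Mki67 and the heat shock gene Hspa1a differed widely between the rows of members. Mki67 had 65.7, 162, 59.0 and 524 CPM in the members of rows 11, 13, 15 and 17 and from 181 to 284 CPM in Helios-positive cells. Row 17, with 22 members, was the only row above the Helios-positive cells. Of the 45 Mki67 UMIs in these members, 42 came from the 8 cells with neither coreceptor UMI. Of the 7 cycling genes, Mcm3, a replication licensing factor, was called lower (68.2 and 163 CPM), and lost the call without row 11 with a log2 ratio of -0.85. Of members, 17.1% had at least 3 UMIs of the cycling list against 37.0% of the deeper Helios-positive cells. Hspa1a, an inducible HSP70 gene that also responds to tissue handling, had 507, 375, 23.6 and 46.6 CPM in members and 141, 127, 85.6 and 70.0 CPM in Helios-positive cells. Rows 11 and 13 were thus high and rows 15 and 17 low in members, and of the 6 heat shock genes 0 were called. The 2 copies Hspa1a and Hspa1b are near-identical, so their counts may be divided between them.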

How the data were processed

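Single-cell RNA-seq (10x Genomics V(D)J workflow, read from the 5′ end) and hashtag counts of sorted thymocytes were analysed as 1 pooled matrix of 32285 genes and 20 hashtag rows for 16179 barcodes. The deposited counts are UMI counts, not normalized, made by the authors with Cell Ranger 6.0.0 and a prebuilt mm10 reference for the barcodes called as cells; the submitters' processing notes also name Seurat, whose output was not used here. Of the hashtag UMIs, 99.9% lay on rows 11 to 18. Free RNA was not removed, and whether counting used strand was not stated in the sources consulted.

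Cells below 1000 genes or above 5% mitochondrial counts were dropped. Cells without 1 hashtag row holding at least 80% of at least 10 UMIs were left out, which removes doublets between rows. Doublets within a row were not called, and a limit of 4000 genes per cell was used as an alternative. UMIs were summed per class, divided by the total to give CPM, and compared as log2 ratios with 10 CPM added, which understates the change of low genes. Genes needed 20 CPM in the higher class, and the call used rows with at least 20 cells of both classes.

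Genes named are those of the fixed gene lists, the 15 genes with the highest and the 15 with the lowest log2 ratios among the calls (without gate, ribosomal, mitochondrial, Gm and Rik genes and receptor segments), and the TRAV and TRBV segments with the most UMIs. Genes outside this rule (Cd74 and the H2 genes) were chosen after their values were seen. The members and lists were chosen with earlier results of these data known. The call was tried on simulated Poisson counts with known fold changes and the same mean level of a gene in every row. These counts held no variation between rows and no few cells with many UMIs of a gene. The simulation therefore cannot show how the call behaves under such effects. Segment sequences and positions were read from GRCm38, annotated by GENCODE M21. Shares and levels were computed with Python 3.11.15, numpy 2.4.6 and scipy 1.17.1. Alternatives changed 1 step at a time (the cell filters together, the hashtag limits together, a gate, the depth, the pseudocount or a row), and 2 of them, leaving out cells with antigen-presenting transcripts and gating the comparison cells on Ccr9, Lef1 and Satb1, were added after seeing the data. Results for a few genes are not reported here.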

Additional observations from a re-analysis of the deposited data

Results flagged for a closer look

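Among 40 values compared over the 4 hashtag rows, 4 had 1 row whose gap to the nearest row exceeded Dixon's 95% critical share of the range, where chance gives about 1 in 20. They were the share of members among cells passing the CD3 and exclusion criteria (37.1% in row 11, next highest 12.7%), the median UMI count of DP-gate cells (2842 in row 11, next lowest 10822), the share of members with Cd4 alone (51.7% in row 15, next highest 36.4%) and the log2 ratio of Cd8b1 (0.51 in row 17, next lowest 2.47).

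The member rule also found cells outside the 4 rows described. In rows 12, 14, 16 and 18, 860 cells met it, 228, 323, 92 and 217, or 18.8% of the cells passing the CD3 and exclusion criteria there. Their median sum over Ccr9, Lef1 and Satb1 was 3 UMIs, at the threshold, against 13 in members. Satb1 had 724 CPM in them and Ccr9 9.48 CPM, against 2799 and 660.4 CPM in members. Genes of NK-type iNKT cells were high, with Nkg7 at 1493 CPM, Klrb1c at 407 CPM, Tbx21, the T-bet gene, at 191 CPM and Il2rb at 913 CPM, while members had 96.9, 21.2, 7.57 and 63.6 CPM. Cd4 had 34.1 CPM, Itm2a 139 CPM and Ccr7 2.07 CPM. Trav11 and its copies held 220 of their 770 TRAV UMIs (28.6%, interval 25.4 to 31.9). The same rule therefore selected cells with other leading genes in these rows.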

How the results depend on the processing

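No paired analysis was possible because the hashtag rows were not assigned to the numbered groups of the labels; the classes of cells were compared within rows. With 50 CPM added in place of 10, 71 genes were higher and 52 lower, and the median log2 ratio of the mature SP list was 1.02; with 1 CPM added, 354 genes were lower. With a minimum of 50 CPM, 125 genes were lower. These follow from how the settings weigh low genes. Leaving out 1 row at a time gave 97 to 189 members, 97 of them without row 11, 233 to 263 higher and 247 to 307 lower genes, a Trav11 share of 0.410% to 0.640% (0.879% with a sum of at least 2 UMIs of Ccr9, Lef1 and Satb1, and 0.357% when thinned), a share with Cd4 alone of 35.7% to 40.2%, a TCR-induced median of -0.28 to 0.15 and a mature SP median of 1.79 to 2.13. In these, 194 to 197 of the higher and 190 to 208 of the lower calls were shared. Cells thinned to 2000 UMIs gave 158 higher and 285 lower genes, sharing 127 and 179. Of the 30 leading genes, Igfbp4 lost its call in 7 settings, Chl1 when thinned, and Arhgap20 and Slc9b2 with 50 CPM added or as the minimum. No called direction reversed among the genes examined. Depth limits single rows most: 3 counts correspond to 8.95 CPM in row 11 but 34.9 CPM in row 17.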
